A study of Drosophila melanogaster with 2 samples.

Results

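The regions described here are 691 peaks of CG2202-GFP that lie just upstream of the start of a protein-coding gene whose surroundings hold transcription start sites (TSSs) on 1 strand only. They were taken from a list of 3571 peaks that passed the irreproducible discovery rate (IDR) procedure, which weighs how alike peaks rank between replicates. A peak was a member when its summit had annotated TSSs within 500 bp on a single strand, at least 1 of them of a protein-coding gene, and lay 1 to 500 bp upstream of the nearest coding TSS in the direction of transcription. The members belonged to 646 genes and made up 19.4% of the IDR peaks and 42.7% of the 1618 IDR peaks within 500 bp of any TSS. Not every member was found in both replicates. A peak in each replicate's own list was overlapped by 676 of the 691, and ranks could differ widely between these lists.

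The chromatin came from whole Drosophila melanogaster embryos collected 0 to 12 h after egg laying, of a stable transgenic line in which CG2202 carries GFP at its C terminus. The precipitation used an antibody against GFP, so the values describe the tagged protein in a mixture of all embryonic cell types. The 2 libraries are biological replicates of this single group, and no other genotype, stage or treatment was analysed here. What drives the transgene is not stated in those sources that were used here, and a control alignment entered the peak calling.

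In flies, as in other animals, the stretch of DNA just upstream of a TSS hold the core promoter and the sites where sequence-specific factors bind. Promoters of genes active in most cells often carry the DNA replication-related element (DRE), bound by Dref, or Motif 1, bound by M1BP, while many regulated promoters carry a TATA box, an initiator or GAGA elements. AT-rich DNA upstream of a start site tends to be poor in nucleosomes. A one-strand promoter has a single direction of transcription, so sequence and position around each peak can be read along that direction.

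The sequences below show what lies under the strongest members, since members differed from weaker peaks in base composition. Each is the RefSeq Release 6 (dm6) sequence from 50 bp before to 50 bp after the summit, read 5′ to 3′ in the direction of transcription of the nearest gene. The first 6 are the members of highest signal among those whose sequence is shown, and the last 3 are the next strongest members holding each of the 3 words of smallest p between members and weaker upstream peaks. Capitals mark those words on either strand in all 9 sequences, TATAAA (or TTTATA), TTTAAAAA (or TTTTTAAA) and TTTATG (or CATAAA).
CG14100, chr3L:19590565-19590665, minus strand: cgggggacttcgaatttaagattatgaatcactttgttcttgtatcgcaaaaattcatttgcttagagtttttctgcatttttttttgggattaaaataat
ph-p, chrX:2137281-2137381, minus strand: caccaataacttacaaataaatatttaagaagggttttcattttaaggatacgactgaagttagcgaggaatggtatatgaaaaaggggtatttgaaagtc
Ugalt, chrX:2703838-2703938, minus strand: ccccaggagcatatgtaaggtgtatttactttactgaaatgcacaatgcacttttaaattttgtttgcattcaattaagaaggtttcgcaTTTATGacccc
CG18549, chr3R:12449128-12449228, plus strand: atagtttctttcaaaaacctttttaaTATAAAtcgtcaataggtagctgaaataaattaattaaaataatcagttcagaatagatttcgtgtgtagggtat
RluA-1, chr2L:10474479-10474579, minus strand: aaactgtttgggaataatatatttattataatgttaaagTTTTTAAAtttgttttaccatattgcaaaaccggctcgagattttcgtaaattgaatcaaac
CG1635, chr3R:31588485-31588585, plus strand: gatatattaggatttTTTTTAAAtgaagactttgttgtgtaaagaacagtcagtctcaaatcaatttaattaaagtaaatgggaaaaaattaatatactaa
Rtnl1, chr2L:4997607-4997707, minus strand: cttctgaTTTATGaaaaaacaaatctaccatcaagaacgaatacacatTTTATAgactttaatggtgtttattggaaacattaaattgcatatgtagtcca
CG1142, chr3R:7473899-7473999, minus strand: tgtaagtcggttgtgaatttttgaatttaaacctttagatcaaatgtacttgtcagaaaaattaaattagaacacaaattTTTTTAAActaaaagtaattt
PAN3, chr3L:3081385-3081485, plus strand: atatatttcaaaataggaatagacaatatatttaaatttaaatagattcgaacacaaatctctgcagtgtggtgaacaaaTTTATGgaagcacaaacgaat

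The GC content of these 9 sequences ran from 21.8% in CG1635 and CG1142 to 35.6% in Ugalt. At least 1 of the 3 words is marked in 7 of them, and CG14100 and ph-p hold none.

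The strongest peak of the whole series was a member, at px (plexus, a nuclear protein of wing vein patterning). The peak spanned 2R 22514097 to 22514513, with its summit 204 bp upstream of a TSS. Its signal, the value the caller gave the peak against the control, was 2323 in the IDR list, 1116 in replicate 1 and 1213 in replicate 2, and it ranked 1 in both replicate lists. CG14100 followed with 1991 in the IDR list, 898 in replicate 1 and 1097 in replicate 2, 91 bp upstream. CG1888 had 1777, 933 and 858 in the same order, 233 bp upstream. These 3 peaks were within the top 7 of each replicate. They were also the 3 strongest of all IDR peaks, and members held 30 of the 100 strongest and 242 of the 1000 strongest IDR peaks.

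The next members by signal were of mixed function. The peak of ph-p (polyhomeotic proximal, a subunit of Polycomb repressive complex 1) had a signal of 1483 and lay 476 bp upstream, near the far edge of the window. Ugalt, a UDP-galactose transporter, had 1404 at 36 bp. CG18549 had 1355 at 118 bp and Fkbp14, a peptidyl-prolyl isomerase, 1249 at 120 bp. RluA-1, of the pseudouridine synthase family, had 1231 at 180 bp. CG1635 had 1127 at 138 bp and Tina-1 had 1112 at 180 bp.

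The other 10 of the 20 strongest members ran from 1026 at gish (a casein kinase of the gamma class) down to 844 at CG1142. Between them came mRpL41 (a mitochondrial ribosomal protein) with 966.5, Rtnl1 (a reticulon of the endoplasmic reticulum) with 931.6 and CBP (a calcium-binding protein) with 917.3. Lower still were aay (phosphoserine phosphatase) with 912.1, elav (a neuronal RNA-binding protein) with 905.7 and CG7841 with 874.8. E23, an ABC transporter, had 871.5 and Toll-7, a Toll family receptor, had 864.8. Of these 20 peaks, CG1888, ph-p, CBP, elav and Toll-7 ranked better in replicate 1, px ranked first in both, and the others ranked better in replicate 2. The gap was widest at gish, with a signal of 207 (rank 422) in replicate 1 and 669 (rank 25) in replicate 2.

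**Figure D1:**
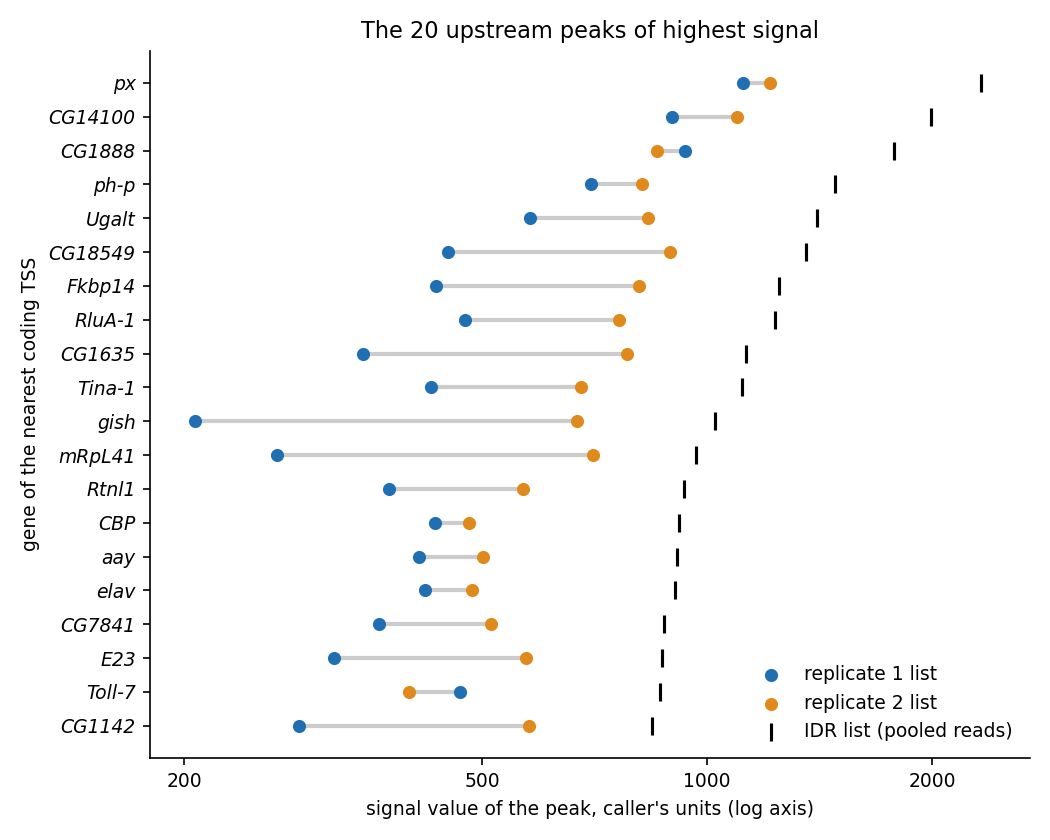
Signal of the 20 members of highest signal (log axis, the caller's units), 1 row per peak labelled by the gene of the nearest coding TSS. Circles give the replicate 1 and replicate 2 lists and the bar the IDR list. Signals come from separate lists and their levels are not on 1 scale. The circles of px, CG14100 and CG1888 lie close together, while those of gish lie at 207 and 669.

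Over all 691 members the signal had a median of 209.1 (quartiles 151.7 and 340.2, range 121.0 to 2323). The median of all 3571 IDR peaks was 193.5. The peaks were 100 to 677 bp wide, with a median of 373 bp. The members lay on all arms, with 133 on 2L, 125 on 2R, 146 on 3L, 171 on 3R, 111 on X and 5 on chromosome 4. Their shares per arm were close to those of all IDR peaks, for example 24.7% against 24.2% on 3R and 16.1% against 15.5% on X.

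To ask where in the promoter the peaks sat, the distance from summit to TSS was compared with that of weaker upstream peaks. These were 2726 peaks of the pooled list that overlapped no IDR peak and met the same rule of strand and distance. They have signals from 26.4 to 120.9, and 1407 of them reached a q-value below 0.05 from the caller, so not all can be taken as binding sites. The median distance was 174 bp for members (quartiles 105 and 282 bp) and 144 bp for weaker peaks (56 and 278 bp). The weaker peaks were crowded against the TSS, with 22.6% in the first 50 bp (95% exact binomial interval 21.1 to 24.2%). Members had 9.99% there (7.85 to 12.47%), and their fullest 50 bp were those from 101 to 150 bp upstream, with 126 peaks or 18.2% (15.4 to 21.3%). From 51 to 250 bp upstream lay 59.8% of members (56.0 to 63.5%) and 48.0% of weaker peaks (46.1 to 49.9%). These intervals cover the counting of peaks only.

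At the edges of the rule, the summits of RpL39 and scny were 1 bp upstream, with signals of 229.4 and 281.3, and jar was at 2 bp with 145.6. Just outside, cindr had its summit on the TSS itself with 157.7 and drn 1 bp downstream with 301.7. At the far edge CG6602 was inside at 500 bp with 145.5, and CG8635 and E(spl)m2-BFM were outside at 501 bp with 129.1 and 382.1.

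The DNA under the members was AT-rich. In the 101 bp centred on the summit the mean GC content was 33.1% ± 10.1 (SD over 691 peaks), against 41.01% ± 10.7 over the 2726 weaker upstream peaks. Of the members, 533 (77.1%, 95% interval 73.8 to 80.2%) had a GC content below 40%, against 1258 weaker peaks (46.1%, 44.3 to 48.0%). The odds ratio was 3.94 (95% Wald interval 3.25 to 4.77), and Fisher's exact test (two-sided) gave p = 4.28e-49 after Benjamini-Hochberg adjustment over 12 tests of shares. Below 25% GC were 161 members (23.3%) and 200 weaker peaks (7.34%). Peaks are not replicates of the experiment, so this and all other p-values speak of the peak lists, with embryo-to-embryo variation left out.

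The difference in GC content was present in each replicate by itself. When the members were drawn from the 3571 strongest peaks of replicate 1 alone, the odds ratio was 2.93 (adjusted p 1.32e-30, Fisher's exact test), and from replicate 2 alone it was 3.22 (adjusted p 1.27e-36). Mean GC content was then 37.0% for 633 members and 43.0% for their weaker peaks in replicate 1, and 32.0% for 774 members and 38.4% in replicate 2. Members and weaker peaks alike were thus lower in GC content in replicate 2 than in replicate 1. Within bands of distance to the TSS the odds ratio over all members was 3.67.

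GC content varied with position. Members 1 to 100 bp upstream averaged 40.6% ± 10.3 (SD, 161 peaks), and those 201 to 300 bp upstream 29.9% ± 8.76 (149 peaks). Weaker peaks averaged 44.7% ± 9.31 and 38.4% ± 10.5 in the same bands. Members were lower in every band of 100 bp, and the gap was smallest next to the TSS. The median signal of members was lowest next to the TSS, 162.1 at 1 to 100 bp, and highest at 201 to 300 bp, 273.6. Across members the rank correlation of signal with distance was 0.18 and that of signal with GC content −0.25, both over 691 peaks that share libraries and given as descriptions.

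**Figure D2:**
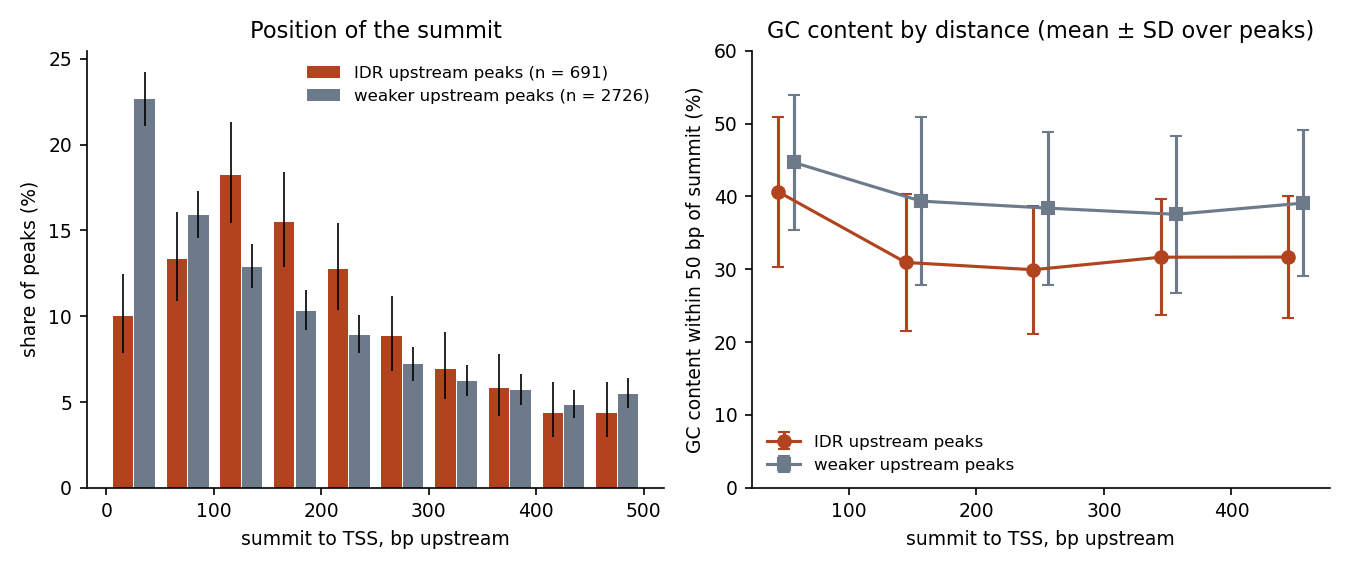
Left, share of peaks (%) in each 50 bp of distance between summit and TSS for 691 members (red) and 2726 weaker upstream peaks (grey), with 95% exact binomial intervals. Right, GC content (%) averaged over peaks in bands of 100 bp, with bars of 1 SD over peaks. Weaker peaks are most frequent within 50 bp of the TSS (22.6%) and members at 101 to 150 bp (18.2%).

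Aligned on the summit and read in the direction of transcription, the members formed a narrow trough. Mean GC content was 39.0% at 200 to 176 bp before the summit, fell to 32.0% in the 25 bp just before it and was 45.8% at 175 to 199 bp after it. The weaker peaks had no such trough at the summit, with 37.5%, 40.01% and 44.3% in the same 3 bins. Nearly all weaker peaks were 400 bp wide (quartiles 400 and 400 bp), against quartiles of 234 and 400 bp for members. Whether summits were placed less exactly in weaker peaks was not tested. Aligned on the TSS instead, members reached 48.0% in the 25 bp before the start and weaker peaks 46.6%, and both profiles rose towards the TSS. At 200 to 176 bp upstream of the TSS members had 33.9% and weaker peaks 37.7%. The GC-poor stretch of members thus lay between DNA of higher GC content further upstream and a GC-richer core promoter.

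**Figure D3:**
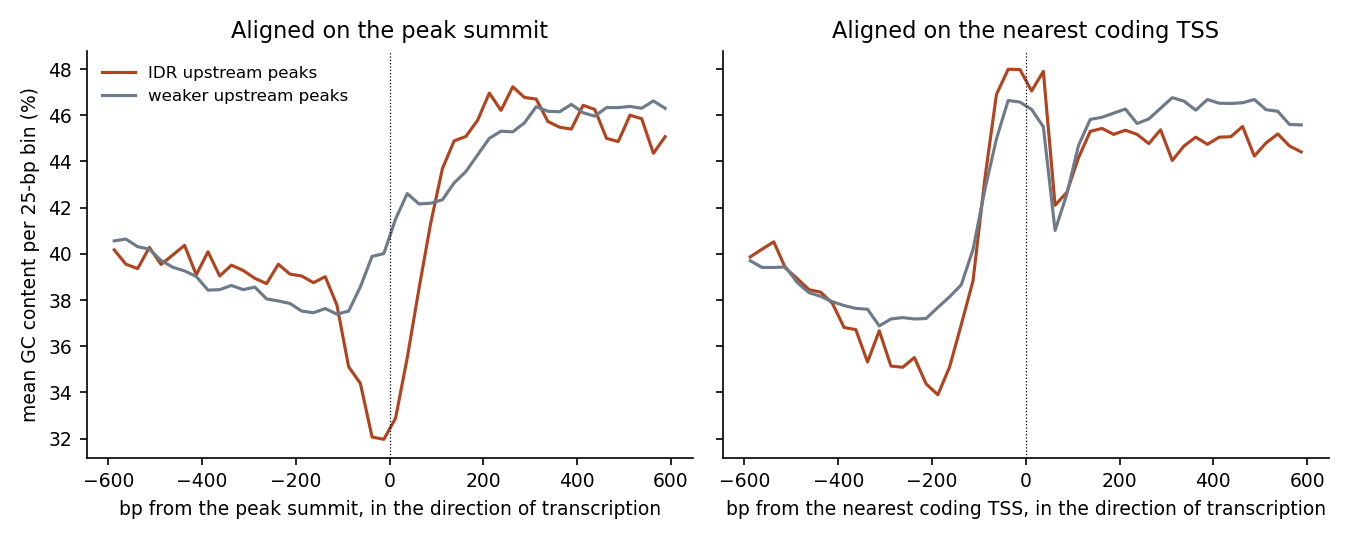
Mean GC content (%) in bins of 25 bp around the summit (left) and around the nearest coding TSS (right), each read in the direction of transcription, for members (red) and weaker upstream peaks (grey). The axis does not start at 0. Members dip to 32.0% next to the summit, where weaker peaks stand at 40.01%.

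To ask which short sequences went with the members, 26 consensus words were counted within 50 bp of the summit on either strand. Against weaker upstream peaks 11 of the 26 words (42.3%) differed at an adjusted p below 0.05 by Fisher's exact test with Benjamini-Hochberg adjustment over the words. Higher in members were TATAAA (the TATA box core), TTTAAAAA (an AT-rich word), TTTATG (bound by Caudal) and TAATTA (bound by homeodomains). Lower were the DRE core ATCGAT and the full DRE TATCGATA, the Motif 1 word GGTCACAC, the E-box CAGCTG, the GAGA element GAGAGAG, the CA repeat CACACACA and the GC repeat GCGCGC. The DRE core lies within the full DRE, so the DRE words count the same sites in part. Every word that was higher is made of A and T alone or with 1 G.

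TATAAA was present in 167 members (24.2%) and 384 weaker peaks (14.1%), an odds ratio of 1.94 (1.58 to 2.39, adjusted p 1.67e-08). In windows of the same length at the members' median distance from all 14293 one-strand coding TSSs, the share was 17.1%. TTTAAAAA was in 9.26% of members, 4.44% of weaker peaks and 4.79% of all promoters, with an odds ratio of 2.20 (adjusted p 3.82e-05, Fisher's exact test). TTTATG was in 15.1%, 8.99% and 11.8%, with an odds ratio of 1.79 (adjusted p 5.36e-05). TAATTA was in 8.83%, 5.76% and 8.57%, so the share in members was close to that in all promoters. The strongest members holding these words are printed above, among them CG18549 and Rtnl1 with TATAAA, RluA-1, CG1635 and CG1142 with TTTAAAAA and Ugalt, Rtnl1 and PAN3 with TTTATG.

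The DRE core ATCGAT was in 6.22% of members and 10.6% of weaker peaks (odds ratio 0.56, adjusted p 0.00165, Fisher's exact test), and in 3.66% of all promoter windows. GAGAGAG was in 1.30% of members, 4.55% of weaker peaks and 3.29% of all promoter windows (odds ratio 0.28, adjusted p 0.000139). For TATCGATA the shares were 1.88% of members, 4.04% of weaker peaks and 0.77% of all promoter windows. GGTCACAC was in 1.01%, 2.60% and 0.36%, and CAGCTG in 4.05%, 7.04% and 4.08%. For CACACACA they were 1.30%, 3.08% and 2.20%, and for GCGCGC 1.01%, 2.49% and 1.27%.

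None of the 7 words that were lower in members, nor TAATTA, kept its call in both replicates taken alone. The odds ratio of ATCGAT was 0.676 with replicate 1 alone (adjusted p 0.105) and 0.844 with replicate 2 alone (adjusted p 0.512), and within bands of distance it was 0.728 (adjusted p 0.238). For GAGAGAG it was 0.365 with replicate 2 alone, which passed, and 0.699 with replicate 1 alone (adjusted p 0.314). With 100 bp either side of the summit ATCGAT (0.753) and GAGAGAG (0.734) did not pass.

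No word passed the threshold against weaker peaks when peaks were compared within strata of GC content 5 percentage points wide, though the size of what remained varied. The odds ratio was then 1.04 for both TATAAA and TTTAAAAA, 0.963 for CAGCTG, 1.29 for TTTATG, 0.696 for ATCGAT, 0.574 for GAGAGAG and 0.551 for TATCGATA, and TAATTA turned to 0.803. Those of GGTCACAC, GCGCGC and CACACACA were 0.618, 0.718 and 0.778. TATAAA, TTTAAAAA and TTTATG kept their call under every other alternative run.

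Copies of TATAAA in members lay a median of 195.5 bp upstream of the TSS, away from the place of a TATA box. In the position of a TATA box, 40 to 18 bp upstream on the sense strand, TATAAA stood at 22 of the 675 TSSs next to members (3.26%, 95% interval 2.05 to 4.89%). The share was 4.40% (3.64 to 5.28%) at 2521 TSSs next to weaker upstream peaks and 7.53% (7.10 to 7.97%) at all 14293 one-strand coding TSSs. The initiator core TCAGT, from 5 bp upstream to 7 bp downstream of the start, was at 14.8% (12.2 to 17.7%), 11.3% and 11.2% of these TSSs. ATCGAT within 100 bp upstream was at 9.93%, 15.7% and 9.62%. These shares were not tested.

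Runs of A or T were read along the direction of transcription. Of the members, 69 held a run of 6 A without a run of 6 T and 94 the reverse, so that the A run was on the sense strand in 42.3% of 163 (exact binomial test against equal shares, adjusted p 0.0718). A further 22 members held both and 506 neither. With a TSS window of 250 bp the share was 40.1% and passed the threshold (adjusted p 0.0353).

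Of the members, 219 (31.7%) lay upstream of an internal promoter, a TSS more than 500 bp downstream of another TSS of the same gene, against 27.9% of weaker peaks (odds ratio 1.20, 1.00 to 1.44, adjusted p 0.0712 by Fisher's exact test). It passed the threshold when each gene was counted once (odds ratio 1.33, adjusted p 0.00879), with a TSS window of 1000 bp (1.22, adjusted p 0.0418), in the 1000 strongest peaks (1.61, adjusted p 0.00448) and against the 637 strongest of the weaker peaks (1.43, adjusted p 0.00704). It did not pass with a TSS window of 250 bp (1.04) or with either replicate alone (1.13 and 1.16). The summits of 89 members (12.9%) lay inside another annotated gene, against 16.7% of weaker peaks (odds ratio 0.74, 0.58 to 0.94, adjusted p 0.0248). That call was lost when each gene was counted once (adjusted p 0.0539) and against those 637 peaks the odds ratio stood at 1.00. It was also lost with a TSS window of 250 bp (0.927) and in the 1000 strongest peaks (0.653).

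The nearest upstream gene ended or began a median of 1672 bp before the TSS of members and 1368 bp before that of weaker peaks. It was on the same strand for 60.3% of 690 members and 59.4% of weaker peaks. Counted once per peak, the genes of members had a median length of 6864 bp and those of weaker peaks 4870 bp.

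Most genes had a single member peak, 608 of 646, while 34 had 2 peaks and 4 had 3 or more. Some pairs lay close together upstream of the same TSS, such as by at 257 and 458 bp and aos at 215 and 418 bp. Whether such pairs are separate sites was not tested. The pyd gene, which encodes a ZO-1 type junction protein, had 3 member peaks with signals of 126.9 to 140.5, and Moe, which encodes the membrane and actin linker Moesin, had 3 with 156.8 to 269.7. Ptpmeg2, a protein tyrosine phosphatase, had 4, with signals of 470.0, 447.5, 286.0 and 193.2, and Rtnl1 had 5. The Rtnl1 peaks had signals of 931.6, 364.8, 307.9, 180.9 and 147.1 at 276, 155, 227, 355 and 272 bp upstream, and all 5 lay at internal promoters. The peaks of signal 364.8 and 180.9 share their coordinates and differ in summit, as 8 members in all did.

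In the replicate lists, which hold 30000 peaks each, 679 members overlapped a peak of replicate 1 by 1 bp or more, 688 a peak of replicate 2 and 676 both. The replicate summit was a median of 16 bp from the member summit in replicate 1 and 19 bp in replicate 2. It was still 1 to 500 bp upstream of the TSS in 94.99% and 97.0% of the matched members. The rank correlation between the replicates' ranks was 0.56 over 676 members, as a description, since the IDR procedure itself uses these ranks. A few members overlapped the same replicate peak, 10 in replicate 1 and 18 in replicate 2.

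Of the members, 479 (69.3%, 65.7 to 72.7%) overlapped one of the 3571 strongest peaks of both replicates, where 64.7% of all IDR peaks did so. The rest were split unevenly, with 71 among the strongest of replicate 1 only, 130 of replicate 2 only and 11 of neither. The groups differed in base composition. Median GC content was 43.6% for the 71 members strong in replicate 1 only and 28.7% for the 130 strong in replicate 2 only, with 30.7% for those strong in both. The first group also lay nearer the TSS, with 39.4% within 100 bp, against 29.2% of those strong in replicate 2 only and 18.6% of those strong in both.

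The same pattern ran through all matched members. Below 25% GC, 140 of 158 members (88.6%) ranked better in replicate 2. The share was 76.0% at 25 to 30%, 64.3% at 30 to 35%, 49.02% at 35 to 40% and 30.3% (47 of 155) at 40% and above. Over all 676 it was 62.4%. The rank correlation of GC content with the rank in replicate 2 minus that in replicate 1 was 0.45 over these 676 peaks, as a description. Whether library preparation, depth or the embryos differed between the replicates was not tested, since no read depth is given in the sources used here.

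**Figure D4:**
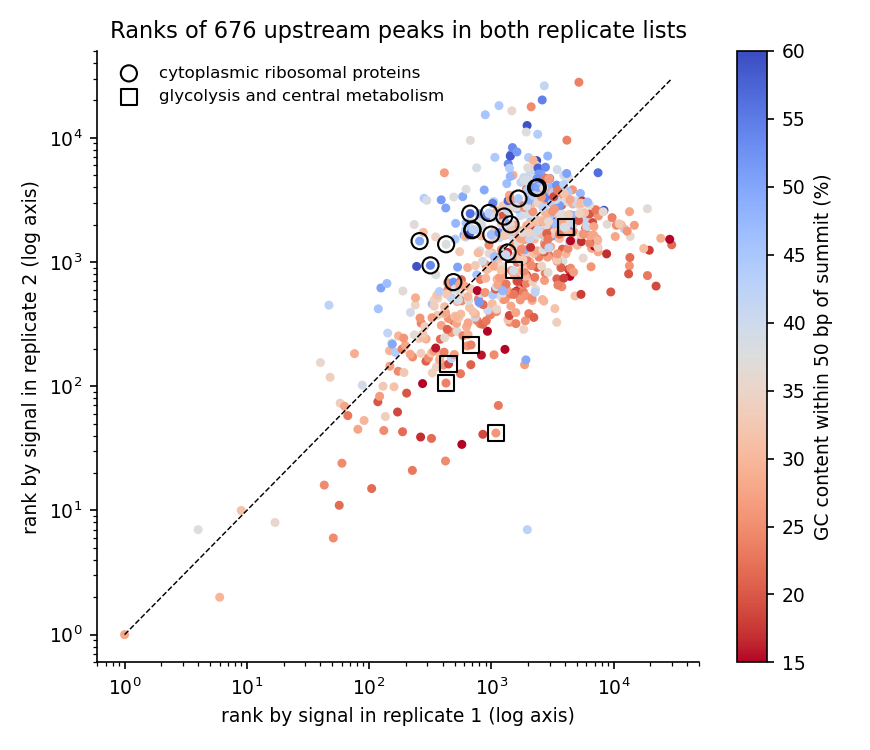
Rank by signal in replicate 1 against rank in replicate 2 (both log axes, rank 1 the strongest) for the 676 members with a peak in both lists, coloured by GC content within 50 bp of the summit (%). The dashed line marks equal ranks. GC-poor peaks (red) lie mostly below the line, with better ranks in replicate 2, as do all 6 glycolysis peaks (squares), and 14 of the 15 ribosomal protein peaks (circles) lie above it.

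Single members show the spread. The peak of blot had a signal of 207.5 (rank 413) in replicate 1 and 51.5 (rank 5230) in replicate 2. Its GC content was 26.7%. In the other direction chb had 60.2 (rank 3779) and 188.9 (rank 632), with a GC content of 24.8%. The 5 largest differences in rank were at LamC (lamin C), Hsp22 (a small heat shock protein), eEF5 (a translation factor), Ids (a sulfatase) and CG12118. LamC ranked 29903 in replicate 1 and 1376 in replicate 2, and Hsp22 28804 and 1523. CG12118 ranked 24337 and 1552. The peaks of eEF5, ranked 2712 and 26230, and Ids, ranked 5206 and 28020, went the other way. GC content was 21.8% at LamC, 14.85% at Hsp22, 28.7% at CG12118, 41.6% at eEF5 and 23.8% at Ids. Being GC-poor yet better ranked in replicate 1, blot and Ids went against the pattern over all members. Each of these 5 peaks stood near the bottom of 1 replicate list and far higher in the other.

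The genes behind the members were described with 16 lists of gene names. The background was the 2848 genes with a pooled summit by the same rule, of which 646 (22.7%) had a member peak. The lists were not tested, and a share near 22.7% says nothing about a list.

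Cytoplasmic ribosomal proteins, the structural proteins of the ribosome, had 14 of 22 background genes with a member (63.6%), in 15 peaks. The list has 86 annotated genes, so this share covers only those with a pooled summit by the same rule. Their summits lay a median of 27 bp upstream, against 174 bp over all members, and their median GC content was 44.5%. RpL23A, 48 bp upstream, had a signal of 381.8 in the IDR list, 231.4 in replicate 1 and 152.7 in replicate 2. RpL11 had 371.2, 190.8 and 182.3, RpS10b had 357.0, 256.1 and 117.9, and RpL31 had 343.2, 205.3 and 122.9 in the same order. Of the 15 peaks, 14 ranked better in replicate 1. The exception was RpLP2, 143 bp upstream with a GC content of 16.8%, which ranked 1360 in replicate 1 and 1194 in replicate 2.

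Other lists of protein synthesis were sparser. Translation factors had 5 of 18 genes (27.8%), led by eEF1gamma (an elongation factor subunit) with a signal of 483.0 at 23 bp. It was followed by eIF5B with 191.9, eIF2A with 183.9 and eIF2beta with 141.0, all initiation factors. All 5 peaks had a GC content of 40% or more and ranked better in replicate 1, with ranks of 2101 and 2114 at eIF5B. Mitochondrial ribosomal proteins had 2 of 7 genes, mRpL41 with 966.5 and mRpL19 with 130.7, and aminoacyl-tRNA synthetases 0 of 6, too few genes to set against the background.

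Glycolysis and central metabolism had 6 of 15 genes (40%) in 7 peaks, which lay a median of 209 bp upstream with a median GC content of 23.8%. Gapdh2, a glyceraldehyde-3-phosphate dehydrogenase, had a signal of 710.6 in the IDR list, 125.8 (rank 1090) in replicate 1 and 578.8 (rank 42) in replicate 2. Eno, the enolase, had 610.0, 205.3 and 413.8, Ldh, the lactate dehydrogenase, had 553.1, 201.4 and 353.3, and Hex-A, a hexokinase, had 447.3, 160.8 and 305.2. All 7 were below 40% GC, and all 6 with a peak in both lists ranked better in replicate 2. The ribosomal and glycolytic peaks thus had opposite replicate preference, in the direction that GC content has over all members. Other lists went both ways. With it went vesicle traffic (median GC content 32.7%, 1 peak better in replicate 1 and 7 in replicate 2) and signalling (27.7%, 2 and 5). Against it went cell cycle and DNA replication (42.1%, 0 and 4), developmental transcription factors (34.2%, 9 and 2) and cytoskeleton and motors (33.7%, 4 and 1).

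Heat shock proteins and chaperones had 6 of 14 genes (42.9%). Hsp27 had a signal of 611.1 at 157 bp, mrj (a DnaJ type chaperone) 606.3 at 290 bp, Hsp83 (the fly HSP90) 550.1 at 95 bp and Hsp26 315.4 at 97 bp. Of their 6 peaks, 3 ranked better in each replicate.

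The list of developmental transcription factors had 12 of 60 genes (20%), near the background. Its strongest members were px, elav, which encodes an RNA-binding protein, E(spl)m7-HLH, a Notch-responsive repressor, with 673.1, and tin (tinman, a heart regulator) with 565.0. Signalling receptors and ligands had 5 of 24 (20.8%), led by spi (the EGF ligand Spitz) with 391.1, aos (its inhibitor Argos) with 343.4 and a second aos peak with 221.8, and unc-5, a netrin receptor, with 213.2. Vesicle traffic had 8 of 34 (23.5%), with Syx4 (a syntaxin) at 226.1, Rab5 (a small GTPase of early endosomes) at 224.9, deltaCOP (a coatomer subunit) at 185.0 and RabGGTa at 164.5. Cytoskeleton and motors had 4 of 17 (23.5%), with peaks of 248.9 and 184.5 at Tm1 (tropomyosin), 200.4 at shot (a spectraplakin) and 174.3 at Act87E (an actin).

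Lists below the background were cell cycle and DNA replication with 4 of 24 genes (16.7%), namely mad2, Dp, CycG and Cdk4 with signals of 187.2 to 128.9. Chromatin regulators had 2 of 18 (11.1%), ph-p with 1483 and Trl (the GAGA factor) with 145.7. RNA polymerase and general transcription had 2 of 18, Taf4 with 216.6 and TfIIA-S with 131.0. Oxidative phosphorylation had 1 of 17 (5.88%), blw (an ATP synthase subunit) with 216.6, splicing and RNA binding 1 of 14, bru2 with 170.2, and the proteasome 0 of 8 genes, again few.

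**Figure D5:**
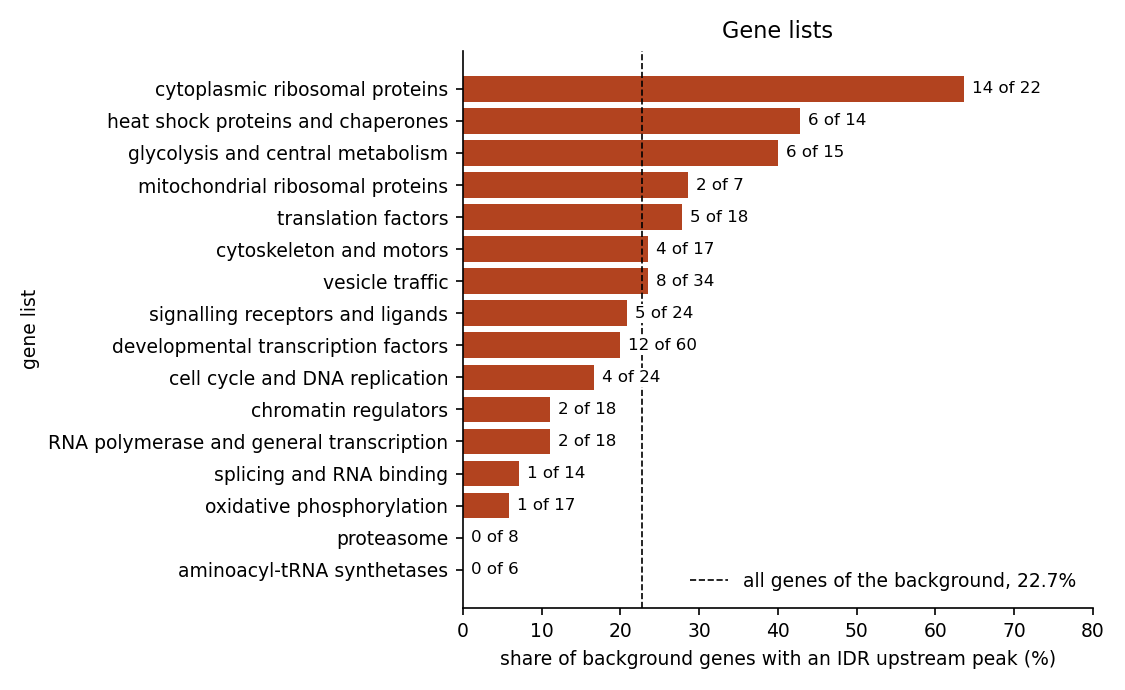
Share of background genes (%) with a member peak for 16 gene lists, with counts beside the bars. The dashed line marks the 22.7% of all 2848 background genes. Cytoplasmic ribosomal proteins stand highest at 63.6%, and the proteasome and aminoacyl-tRNA synthetases are at 0.

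To ask how the members differ from other promoter peaks, they were set against 584 IDR peaks at divergent promoters, with TSSs on both strands within 500 bp, and 239 IDR peaks at or up to 500 bp downstream of a one-strand coding TSS. Against the divergent peaks the contrast in GC content turned on the setting. Of the divergent peaks 78.9% were below 40% GC, giving an odds ratio of 0.90 (0.69 to 1.17, adjusted p 0.456, Fisher's exact test). With a TSS window of 250 bp it was 0.638 (adjusted p 0.0127) and with replicate 2 alone 0.668 (adjusted p 0.00925), members being the less often GC-poor in both, while with replicate 1 alone it was 1.01. A signal above the IDR median was found in 54.7% of members and 49.7% of divergent peaks (odds ratio 1.22, 0.98 to 1.53, adjusted p 0.0884). Support among the strongest peaks of both replicates was 69.3% and 63.9% (odds ratio 1.28, 1.01 to 1.61, adjusted p 0.0637). When each gene was counted once, the last 2 contrasts passed the threshold, at an adjusted p of 0.0386 each.

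Among peaks strong in exactly 1 replicate, replicate 1 held 71 of 201 members (35.3%) and 43 of 208 divergent peaks (20.7%), an odds ratio of 2.10 (1.35 to 3.26, adjusted p 0.00265 by Fisher's exact test). That call was lost with a TSS window of 1000 bp (odds ratio 1.53) and in the 1000 strongest peaks (odds ratio 1.00), of which few were strong in 1 replicate only. Of the 26 words 1 differed (3.85%), TAATTA, in 8.83% of members and 14.6% of divergent peaks (odds ratio 0.57, 0.40 to 0.81, adjusted p 0.0382, Fisher's exact test). The call was lost under most alternatives, with odds ratios of 0.615 and 0.688 at TSS windows of 250 and 1000 bp, 0.606 with 1 peak per gene, 0.602 within strata of GC content, 0.780 with replicate 1 alone and 0.98 in the 1000 strongest peaks. With 100 bp either side of the summit 8 words passed. GAGAGAG (odds ratio 7.49) and TTTATG (1.42) were then higher in members. Lower were CATCNCTA (0.330), TATCGATA (0.382), GGTCACAC (0.433), ATCGAT (0.561), TAATTA (0.624) and CGATA (0.697).

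The peaks at or downstream of the TSS differed from members in each of the 4 shares compared. Of these, 39.7% were below 40% GC, and the odds ratio of members against them was 5.11 (3.73 to 7.0, adjusted p 1.74e-24, Fisher's exact test). A signal above the IDR median was found in 29.7% of them (odds ratio 2.86, 2.08 to 3.92, adjusted p 6.97e-11), and support in both replicates in 55.2% (odds ratio 1.83, 1.35 to 2.48, adjusted p 0.000248). The calls on signal and support were lost in the 1000 strongest peaks, where 37 such peaks remained. Among peaks strong in exactly 1 replicate, replicate 1 held 69.6% of 102 (odds ratio 0.24, 0.14 to 0.40, adjusted p 4.82e-08). Mean GC content moved along with this share, at 31.9% in divergent peaks, 33.1% in members and 42.1% in peaks at or downstream of the TSS, and its part in the replicate preference was not tested.

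Against these peaks 3 of the 26 words (11.5%) differed, all higher in members. TATAAA was in 24.2% of members and 10.9% of them (odds ratio 2.61, 1.68 to 4.07, adjusted p 0.000195, Fisher's exact test), TTTATG in 15.1% and 5.86% (odds ratio 2.85, adjusted p 0.00149) and TTTAAAAA in 9.26% and 3.77% (odds ratio 2.61, adjusted p 0.0442). All 3 calls were lost with replicate 1 alone (odds ratios 1.91, 1.78 and 2.32 in the same order) and in the 1000 strongest peaks. Those on TTTATG and TTTAAAAA were also lost with replicate 2 alone and with a TSS window of 1000 bp, and that on TTTAAAAA with 1 peak per gene. Within strata of GC content none of the 3 passed, at 1.12, 1.64 and 0.972. CGATA (bound by BEAF-32), in 19.8% of members and 14.6% of these peaks, did (odds ratio 1.958, adjusted p 0.0447 in the test within strata). Without strata it did not pass. CGATA also lies within the full DRE, so its count does not separate BEAF-32 sites from DREs. With 50 bp either side of the summit, 0 of the 26 words differed in all 3 comparisons.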

How the data were processed

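Peak lists on dm6 were analysed for 2 replicate embryo libraries, with a pooled list and an IDR list. Per the deposited text, the alignment of a replicate and that of a control gave its list, both replicate alignments gave the pooled list, and these 3 lists gave the IDR list. Aligner, caller and IDR threshold: not given in the sources used here. The authors deposited for each peak a signal value set by the caller and a −log10 q-value; the signal was used for ranks within a list. Read depths are unknown, so no interval rests on reads.

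TSSs came from Ensembl release 115 on the 6 arms (17896 genes and 23722 TSSs, pseudogenes and transposable elements left out), and sequence from RefSeq Release 6. Base composition and words were read in the 101 bp around a summit. Overlap meant at least 1 bp. Shares were compared by Fisher's exact test, two-sided, adjusted by Benjamini-Hochberg over 12 tests or over 26 words at a threshold of 0.05, with Wald intervals of odds ratios and exact binomial (Clopper-Pearson) 95% intervals of shares. The assignment of summits to classes, the word test and the test within strata were tried on simulated data, and the other steps were not.

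Named items were the 20 members of highest signal, up to 4 per gene list, the 5 largest rank differences, the edges of the distance rule, genes with 3 or more member peaks, and the called words (or the 8 of smallest p); replicate and motif examples beyond these were chosen after their values were seen. The members, gene lists and words were chosen with earlier results of these data known. Alternatives were other TSS windows, the 1000 strongest peaks, 1 peak per gene, each replicate alone, the strongest weaker peaks, 100 bp either side of the summit, overlap of at least 50% of the peak and strata of GC content; strata of distance and counting pseudogene starts were added after seeing the data. Tests used scipy 1.17.1 with pandas 2.3.3 and numpy 2.4.6 under Python 3.11.15, and figures matplotlib 3.10.9. Sequences printed for words are of the strongest members not already shown, and sequence of arm 2R is not reported here.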

Additional observations from a re-analysis of the deposited data

How the results depend on the processing

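Of 116 values under alternatives for 15 results, 77 were kept. For an odds ratio or share, kept meant the same direction and side of the threshold. For a count of called words it meant only a count close to the main one. The lower GC content of members than of weaker upstream peaks and of peaks at or downstream of the TSS kept its call under every alternative run. Where another result moved, the cause was not tested.

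A TSS window of 250 bp gave odds ratios against divergent peaks of 0.638 for GC content (adjusted p 0.0127) and 0.939 for signal, which turned its direction. The A-run share was then 40.1% (adjusted p 0.0353), the odds ratio for lying inside another gene 0.927 and the count of words against divergent peaks 0. A window of 1000 bp gave 1.12 for GC content against divergent peaks, which turned its direction, 1.53 for the replicate 1 share and 1.22 for internal promoters, which passed the threshold. Called words were then 6 against weaker, 0 against divergent and 1 against downstream peaks.

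In the 1000 strongest peaks GC content against divergent peaks turned to 1.34, the replicate 1 share was 1.00 and internal promoters 1.61, the last past the threshold. Few of these peaks were strong in 1 replicate only, so the 1.00 does not show equal shares. Support in both replicates against downstream peaks was 2.15, signal 1.15 and lying inside another gene 0.653, none of these 3 past the threshold, and 0 words were called against divergent and 0 against downstream peaks. With 1 peak per gene, support and signal against divergent peaks were 1.31 and 1.29 and internal promoters 1.33, all 3 past the threshold, lying inside another gene 0.770 and words against divergent peaks 0. Against the strongest weaker peaks, internal promoters were 1.43, past the threshold, and lying inside another gene 1.001, which turned its direction.

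Each replicate alone gave GC content against divergent peaks of 0.668 to 1.01, with words called 4 to 6 against weaker, 1 to 5 against divergent and 0 to 1 against downstream peaks. The value of 0.668, from replicate 2 alone, passed the threshold (adjusted p 0.00925), and the turn in direction came with replicate 1 alone. With 100 bp either side of the summit 6 words were called against weaker and 8 against divergent peaks. Strata of GC content left 0, 0 and 1 words against weaker, divergent and downstream peaks, and strata of distance 4 against weaker peaks. Fewer peaks enter the stricter list and the count of 1 peak per gene. No paired analysis was possible because the result comes from peak lists of 1 group, with no second group to pair. Depth is unknown, so its part in any value cannot be told.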
